A study of Mus musculus with 6 samples.

Results

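The semaphorin, plexin, ephrin and netrin genes of tumour-associated macrophages were taken by symbol from a table of FPKM values (fragments scaled by gene length and by mapped reads). The rule took every symbol that begins with Sema3 to Sema7, Plxna to Plxnd, Efna, Efnb, Epha or Ephb plus a number, together with Ntn1, Unc5a, Unc5b, Robo1 and Slit2. It found 40 of 15487 genes: 15 semaphorins, 8 plexins, 8 ephrins, 4 Eph receptors, 2 netrin receptors (Unc5a and Unc5b), the cues Ntn1 and Slit2, and Plxna4os1, a transcript named as antisense to Plxna4. Robo1 was not analysed here. The macrophages were isolated by flow cytometry from CT26 tumours, a mouse colon carcinoma line, in BALB/C hosts on day 15 after tumour challenge. In 3 libraries the tumours carried the label Sg-Con (named for a control guide RNA) and in 3 the label Sg-C3 (a guide against complement C3), and the macrophage samples of both groups are labelled wild type. Because the guide acted in the tumour cells, the C3 level of the macrophages does not check these labels, and whether the edited tumour line was 1 clone is not stated. No label ties a library to an animal of its own, and p-values therefore describe library-to-library spread, which may be technical. Replicates are numbered by accession and are not paired.

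Semaphorins are secreted, membrane-spanning or lipid-anchored proteins that steer axons, vessels and immune cells, and plexins are their main receptors. The secreted class 3 semaphorins act through a plexin together with a neuropilin, whereas class 4 members span the membrane and bind B-type plexins or immune receptors such as CD72. Ephrins and Eph receptors are both held on cell surfaces and signal at cell contacts, and netrins and Slits are secreted cues read by Unc5, Dcc and Robo receptors. In macrophages and dendritic cells several of these proteins are known to take part in migration and in contacts with T cells.

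Depth was similar between the groups. From the steps of low values in 404 short non-coding genes, the libraries were estimated to hold 17.8 to 19.4 megareads that mapped, and the members that passed the filter on low values an estimated 44 to 9623 reads per library. Pearson's r over genes was 0.986 to 0.990 within a group and 0.945 to 0.974 between the groups. All 10 macrophage markers listed were detected, at summed levels of 15200 to 16900 FPKM in Sg-Con and 9290 to 11600 FPKM in Sg-C3. Of these 10, 3 were called lower (Cd68, Lyz2 and Itgam), near the 31.7% called lower among all tested genes. The other 7 did not pass, with mean ratios of Sg-C3 to Sg-Con of 0.992 for Adgre1, 0.983 for Fcgr1 and 0.958 for Cd14. Without Lyz2 (6930 to 8720 and 2710 to 3730 FPKM) the sums overlapped, at 7700 to 9050 and 6580 to 7840 FPKM. In bulk samples, fewer cells of a type and less RNA per cell cannot be told apart. Markers of other cells also differed between the groups, with no marker at 0 in all 6 libraries, and their part in the results below was not tested.

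The 3 most abundant guidance genes were Plxnb2, Sema4d and Sema4a in both groups, in a different order in each. FPKM is a value per length, so the genes were ranked by it. The FPKM tool is not given, and such comparisons between genes are therefore approximate. In Sg-Con the highest mean levels were those of Plxnb2 (69.1 FPKM), Sema4d (31.9), Sema4a (16.0), Plxna1 (12.1), Plxnd1 (11.7) and Slit2 (7.55). In Sg-C3 the order was Sema4d (69.3 FPKM), Plxnb2 (33.3), Sema4a (27.5), Plxnd1 (15.2), Plxna1 (13.9) and Slit2 (13.4). Plxna1 and Plxnd1, neighbours in both orders, had values that overlapped in each group. In Sg-C3 the values of Plxnb2 and Sema4a also overlapped, as did those of Plxna1 and Slit2, whereas the other neighbours in the 2 orders were apart in every library. Within each library, where scaling cancels, the ratio of Sema4d to Plxnb2 was 0.522, 0.286 and 0.593 in Sg-Con and 2.26, 2.92 and 1.42 in Sg-C3. All Sg-Con ratios were thus below 1 and all Sg-C3 ratios above 1, a pair chosen after its values were seen and given without a test.

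The test was limma on log2(FPKM + 1) for genes that reached 1 FPKM in 3 or more libraries, with p-values adjusted over all 11198 of them. Of the 40 members 19 were tested: 9 rose in Sg-C3 (Sema4a, Sema4b, Sema4c, Sema4d, Sema6d, Plxnc1, Ntn1, Slit2 and Unc5a), 2 fell (Plxnb2 and Sema5a) and 8 did not pass. Over all tested genes 44.4% were called, 12.7% higher and 31.7% lower. Ntn1 and Unc5a passed the filter only through their Sg-C3 values and Sema5a only through its Sg-Con values, so the count over all members comes from a fit without the filter. There 13 of 40 members were called (32.5%), close to the 32.1% of all 15487 genes. The directions were 10 higher (25.0%, against 10% of all genes) and 3 lower (7.5%, against 22.1%). The median log2 fold change of the 40 members was 0.11 and that of all genes -0.09. Scaling moved the shares of tested genes called, to 37.2% (19.6% higher, 17.6% lower) after median-ratio scaling and to 38.4% (16.6% higher, 21.9% lower) after quantile normalization. Of the 19 tested members these called 14 and 12, which are not read against those shares because Ntn1, Unc5a and Sema5a passed the filter through 1 group only. No test was made of the split. Among the 9 members that rose, Sg-C3 replicate 2 was the highest library of its group for 6.

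**Figure D1:**
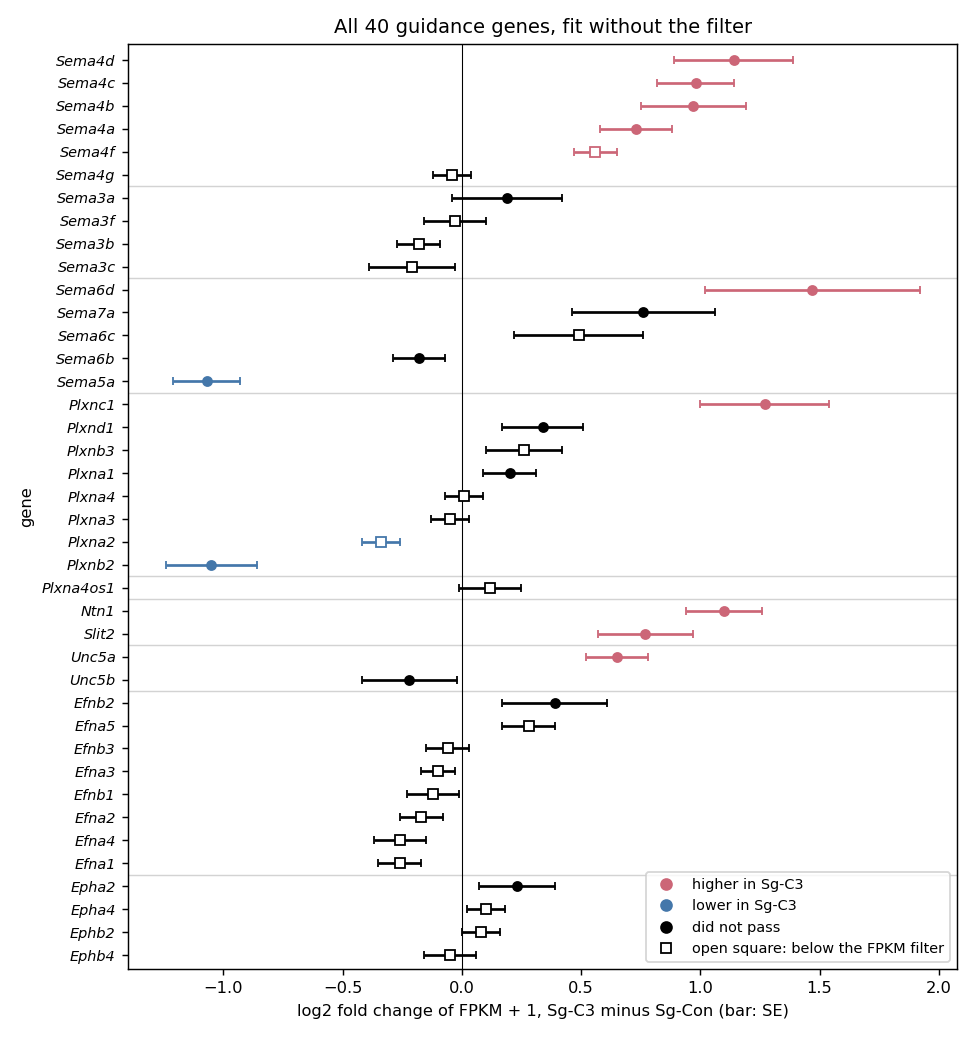
Log2 fold change of FPKM + 1 (Sg-C3 minus Sg-Con, 3 libraries each) of all 40 members in the limma fit without a filter, by family, with bars for the SE and open squares for members below the filter. Class 4 semaphorins stand at the right except Sema4g (-0.04). The ephrins and Eph receptors lie between -0.26 and 0.39, on a scale that understates changes of low values.

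**Figure D2:**
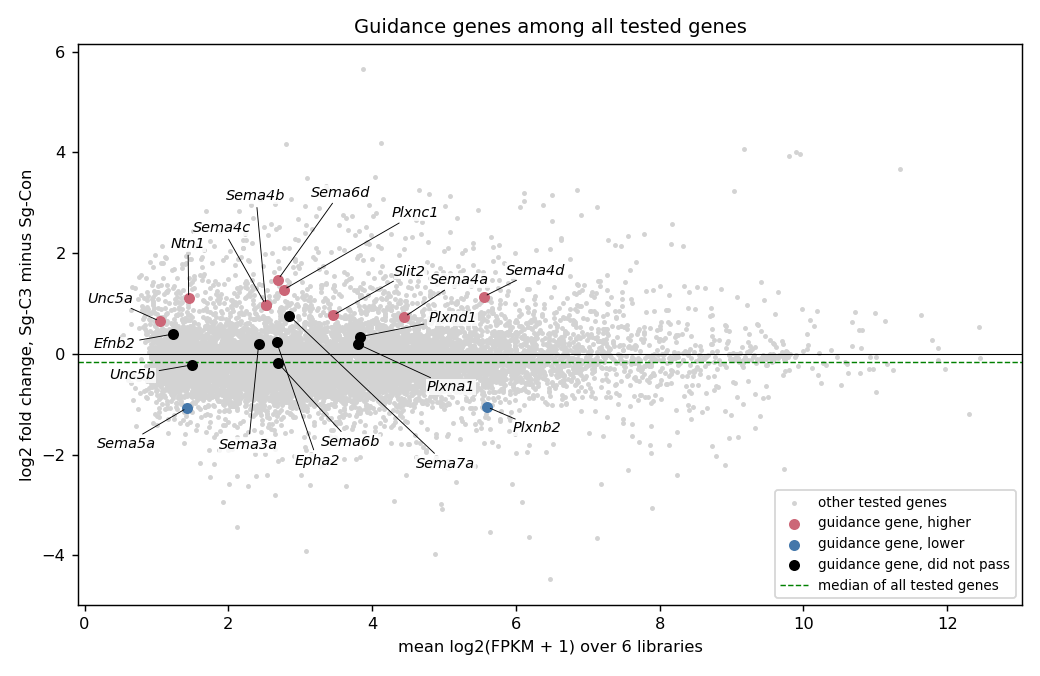
Log2 fold change (Sg-C3 minus Sg-Con) against mean log2(FPKM + 1) over the 6 libraries for all 11198 tested genes in grey and the 19 tested members in colour. The 9 members that rose lie between 0.65 and 1.47, and Plxnb2 and Sema5a lie at -1.05 and -1.07.

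Of 6 class 4 semaphorins, Sema4a, Sema4b, Sema4c and Sema4d rose, Sema4f was called higher only in the fit without the filter, and Sema4g did not pass. In that fit 5 of 6 were called higher, against 10% of all genes. Sema4d (gene 20354), known as CD100, is a ligand of B-type plexins and of CD72 on leukocytes. It stood at 40.08, 20.22 and 35.42 FPKM in Sg-Con and at 63.05, 82.77 and 62.17 FPKM in Sg-C3. Every Sg-C3 library was above every Sg-Con library, with means of 31.9 ± 10.4 and 69.3 ± 11.6 FPKM (SD, n = 3). The log2 fold change was 1.14 (SE 0.25, limma adjusted p = 0.0111). Sema4a (gene 20351), a ligand that costimulates T cells, was measured at 14.82, 15.22 and 17.91 FPKM in Sg-Con and 22.77, 32.75 and 26.88 FPKM in Sg-C3. Its groups did not overlap either, and the mean rose 1.72-fold (log2 fold change 0.73, SE 0.15, limma adjusted p = 0.00824).

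The other class 4 genes were less abundant. Sema4c (gene 20353), a ligand of plexin B2, had 3.75, 2.82 and 2.73 FPKM in Sg-Con and 6.04, 6.74 and 8.53 FPKM in Sg-C3, a 2.29-fold higher mean (log2 fold change 0.98, SE 0.16, limma adjusted p = 0.00424). Sema4b (gene 20352) had 2.55, 2.37 and 4.77 FPKM against 7.76, 6.27 and 7.20 FPKM, a 2.19-fold higher mean (log2 fold change 0.97, SE 0.21, limma adjusted p = 0.011). In both genes the lowest Sg-C3 library exceeded the highest Sg-Con library. Sema4f stood at 0.15, 0.04 and 0.10 FPKM in Sg-Con and at 0.70, 0.68 and 0.47 FPKM in Sg-C3. These correspond to an estimated 3 to 53 reads per library, so the call (log2 fold change 0.56, limma adjusted p = 0.00638 without the filter) rests on a low level in both groups. Sema4g stayed between 0.16 and 0.32 FPKM in all libraries, with overlapping groups.

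Some markers of T cells, NK cells and dendritic cells were higher beside these ligands. Without the filter, 7 of 10 T cell markers rose and none fell, where 10% of all genes were called higher. Their sums were 2.71 to 6.35 FPKM in Sg-Con and 16.5 to 24.8 FPKM in Sg-C3. Without Cd4, the most abundant of them, the sums were 2.38 to 3.77 and 6.6 to 9.24 FPKM. Of 8 NK markers 7 rose (sums of 1.51 to 4.14 and 30.2 to 36.3 FPKM, and without Klrk1 0.73 to 1.61 and 15.8 to 24.6 FPKM). Of 12 dendritic cell markers 5 rose (16.1 to 24.5 and 56.7 to 81.1 FPKM), and the others, Flt3 and Zbtb46 among them, did not pass. Without Ccr7 the dendritic cell sums were 14.8 to 21.2 and 32 to 35.2 FPKM. B cell markers summed to 1.76 to 4.62 FPKM in Sg-Con and to 4.72 to 6.91 FPKM in Sg-C3, with no member called. Of 8 neutrophil markers 4 rose, at sums of 163 to 233 and 392 to 1330 FPKM, and without S100a9 139 to 156 and 202 to 601 FPKM. Cxcr2, Ly6g, Mmp8 and Mmp9 did not pass, with mean ratios of Sg-C3 to Sg-Con of 1.29, 12.5, 0.499 and 0.674. Which cells held the class 4 RNA was not tested.

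**Figure D3:**
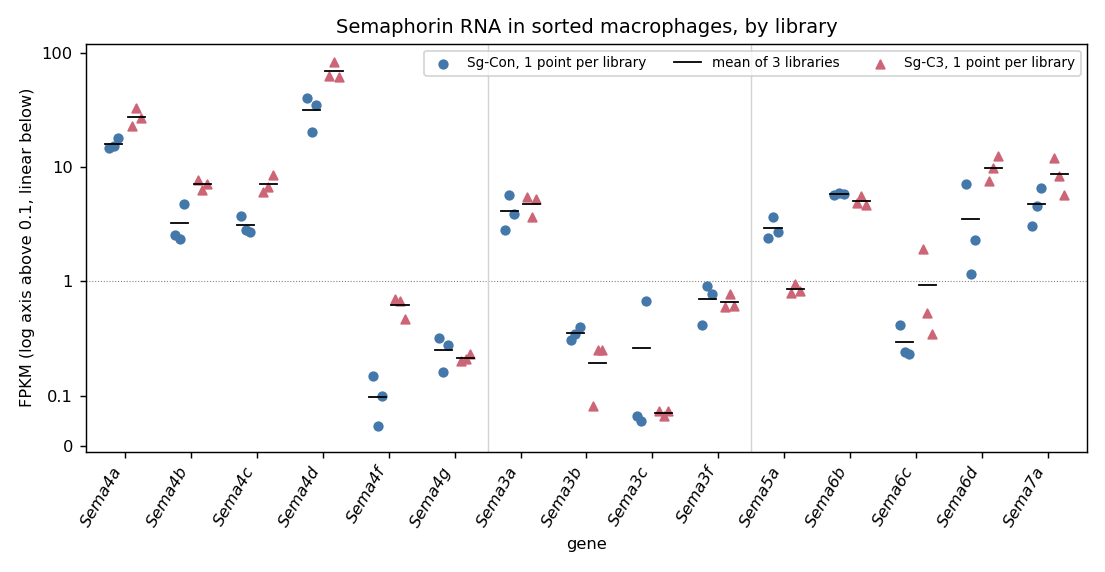
FPKM of the 15 semaphorin genes in each library (circles Sg-Con, triangles Sg-C3, black lines the means of 3), on an axis that is logarithmic above 0.1 and linear below, with a dotted line at 1 FPKM. Sema4a, Sema4b, Sema4c, Sema4d and Sema4f have all triangles above all circles, and Sema5a has all triangles below.

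Semaphorins of the other classes went both ways. Sema5a (gene 20356), a membrane protein with thrombospondin repeats, fell from 2.39, 3.69 and 2.72 FPKM to 0.80, 0.95 and 0.82 FPKM. All Sg-C3 values were under 1 FPKM and under every Sg-Con value. As Sema5a passed the filter only through Sg-Con, the fit without the filter is given (log2 fold change -1.07, SE 0.14, limma adjusted p = 0.00386). Sema6d (gene 214968), a ligand of plexin A1, rose from 7.12, 1.17 and 2.29 FPKM to 7.59, 9.77 and 12.46 FPKM. The groups did not overlap, but Sg-Con replicate 1 (7.12 FPKM) came close to the lowest Sg-C3 library (7.59 FPKM). Its log2 fold change was 1.47 (SE 0.45, limma adjusted p = 0.033). This call was lost when any single library other than Sg-Con replicate 1 was left out (adjusted p from 0.0622 to 0.0915), and when the style of the sample titles was a covariate (0.0524). Without Sg-Con replicate 1 its log2 fold change was 2.01.

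Further semaphorins of these classes and of class 3 were expressed above the filter and did not pass. Sema7a, a lipid-anchored ligand of plexin C1 and of integrins, had 3.04, 4.54 and 6.59 FPKM in Sg-Con and 12.08, 8.31 and 5.72 FPKM in Sg-C3. Its groups overlapped through Sg-Con replicate 3 and Sg-C3 replicate 3 (log2 fold change 0.76, SE 0.30, limma adjusted p = 0.0729), and it passed without either of those libraries (adjusted p = 0.0401 and 0.0312) and after median-ratio scaling (0.0491). Sema6b stood at 5.73 to 5.95 FPKM in Sg-Con and 4.69 to 5.62 FPKM in Sg-C3, with a log2 fold change of -0.18 (limma adjusted p = 0.191). Sema3a, a secreted ligand that binds neuropilin 1, stood at 2.82 to 5.73 FPKM and 3.64 to 5.47 FPKM (limma adjusted p = 0.517). Of the class 3 genes below the filter, Sema3b reached 0.40 FPKM, Sema3c 0.68 FPKM and Sema3f 0.92 FPKM, and Sema6c reached 1.93 FPKM only in Sg-C3 replicate 1.

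Plexin genes moved in opposite directions. Plxnb2 (gene 140570), a receptor of Sema4c and Sema4d, was the most abundant member in Sg-Con, at 76.77, 70.72 and 59.72 FPKM. In Sg-C3 it stood at 27.92, 28.37 and 43.75 FPKM. The groups did not overlap and the mean fell from 69.1 ± 8.64 to 33.3 ± 9.01 FPKM (SD, n = 3). Its log2 fold change was -1.05 (SE 0.19, limma adjusted p = 0.00593). Plxnc1 (gene 54712), the receptor of Sema7a, rose from 4.01, 1.85 and 4.88 FPKM to 8.40, 11.20 and 9.37 FPKM, a 2.70-fold higher mean (log2 fold change 1.27, SE 0.26, limma adjusted p = 0.00928). Its lowest value was that of Sg-Con replicate 2, and without that library the log2 fold change was 0.96. The test of all genes thus placed Plxnb2 among the lower genes while its ligands Sema4c and Sema4d were among the higher ones. Plxnb1, another B-type plexin, was not among the members found by the rule and is not part of this contrast.

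Plxna1 and Plxnd1 were abundant and did not pass. Plxna1, a receptor that works with neuropilins and also binds class 6 semaphorins, stood at 13.73, 11.29 and 11.15 FPKM in Sg-Con and 14.28, 13.96 and 13.49 FPKM in Sg-C3 (log2 fold change 0.20, SE 0.11, adjusted p = 0.166 in limma). It passed as higher after quantile normalization (adjusted p = 0.0412) and median-ratio scaling (0.026). Plxnd1 stood at 13.58, 10.47 and 10.97 FPKM and at 19.20, 12.96 and 13.37 FPKM (log2 fold change 0.34, SE 0.17, adjusted p = 0.139 in limma) and passed after median-ratio scaling (0.0406). Both genes overlapped between the groups through Sg-Con replicate 1. Of the plexins below the filter, Plxna2 had 0.46 to 0.59 FPKM in Sg-Con and 0.17 to 0.26 FPKM in Sg-C3 and was called lower without the filter (log2 fold change -0.34, limma adjusted p = 0.0172). Plxna3 and Plxna4 reached 0.60 and 0.35 FPKM, and Plxnb3 stood at 1.31 FPKM in Sg-C3 replicate 3 and at 0.43 to 0.64 FPKM in the other libraries, none of them passing. Plxna4os1 stayed between 0.17 and 0.68 FPKM. No source used here says whether the authors' counting used strand, so its reads and those of Plxna4 may not be separable.

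**Figure D4:**
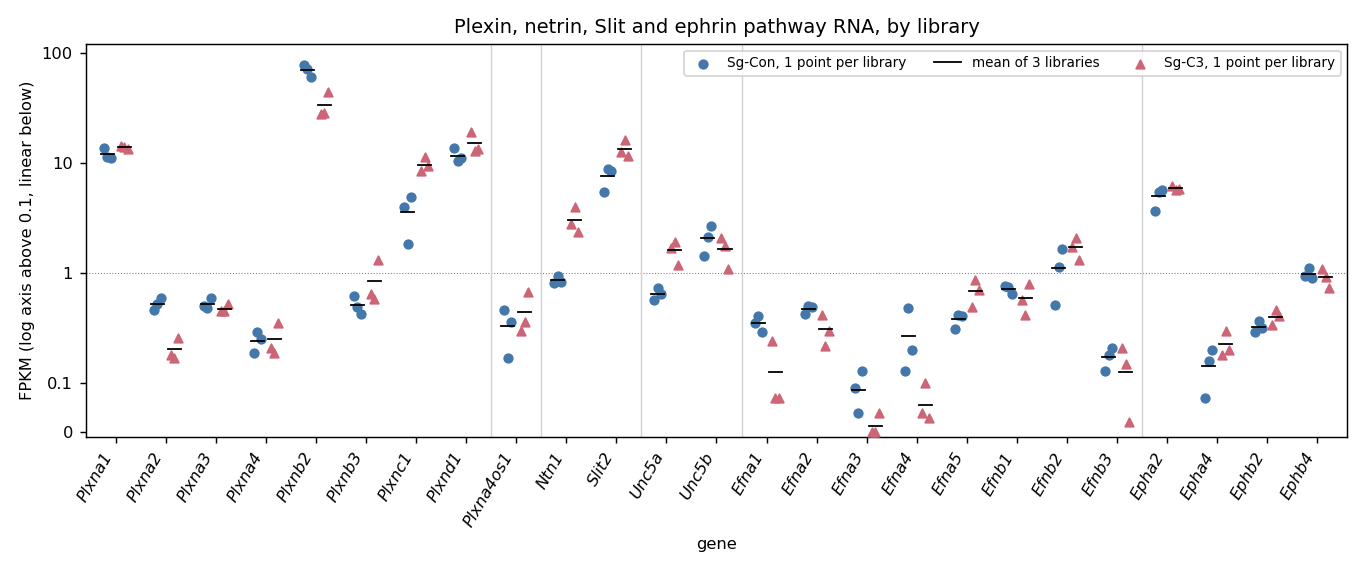
FPKM of the plexins, Plxna4os1, netrin and Slit cues, netrin receptors, ephrins and Eph receptors in each library (circles Sg-Con, triangles Sg-C3, black lines the means of 3), on an axis that is logarithmic above 0.1 and linear below. Plxnb2 falls and Plxnc1, Ntn1, Slit2 and Unc5a rise without overlap, and most ephrins and Eph receptors lie under the dotted line at 1 FPKM.

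The cues Ntn1 and Slit2 rose. Ntn1 (gene 18208), which encodes netrin 1, a laminin-related cue, had 0.81, 0.95 and 0.83 FPKM in Sg-Con and 2.81, 4.01 and 2.35 FPKM in Sg-C3. The mean was 3.54-fold higher and the groups did not overlap. As Ntn1 passed the filter only through Sg-C3, the fit without the filter is given (log2 fold change 1.10, SE 0.16, limma adjusted p = 0.00491). Slit2 (gene 20563), a ligand of Robo receptors, had 5.43, 8.82 and 8.41 FPKM against 12.48, 16.25 and 11.56 FPKM, a 1.78-fold higher mean (log2 fold change 0.77, SE 0.20, limma adjusted p = 0.0184). Its call was lost without Sg-C3 replicate 2 (adjusted p = 0.067). Among the receptors, Unc5a (gene 107448) rose from 0.57, 0.73 and 0.65 FPKM to 1.70, 1.93 and 1.19 FPKM, with an estimated 44 to 146 reads per library. Unc5a also passed the filter only through Sg-C3, and the fit without the filter is given (log2 fold change 0.65, SE 0.13, limma adjusted p = 0.0117). Unc5b, another netrin receptor, had 1.43 to 2.68 FPKM in Sg-Con and 1.10 to 2.07 FPKM in Sg-C3, overlapped between the groups and did not pass (log2 fold change -0.22, limma adjusted p = 0.402). Thus the higher netrin receptor RNA in Sg-C3 was that of Unc5a, and whether its change differed from that of Unc5b was not tested.

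Fibroblast markers differed beside these cues. Of 10 tested fibroblast markers 5 rose and 2 fell, at summed levels of 70.6 to 98.1 FPKM in Sg-Con and 151 to 218 FPKM in Sg-C3. Most of that difference lay in Dcn (17.9 to 28.8 and 85.3 to 135 FPKM), and without it the sums overlapped, at 51.6 to 69.4 and 65.5 to 83.1 FPKM. Of 9 endothelial markers in the table, Pecam1, which leukocytes also express, rose and Cdh5 fell in the fit without the filter. Cdh5 passed the filter only through its Sg-Con values. Kdr did not pass (means of 3.29 and 4.35 FPKM). The 6 endothelial markers below the filter reached at most 0.94 FPKM (Esam), and without Pecam1 the endothelial sums overlapped (6.53 to 8.36 and 5.27 to 7.65 FPKM). Of 4 tested carcinoma markers 3 fell (sums of 33.7 to 65.1 and 5.54 to 10.4 FPKM). Schwann cell and neural markers overlapped between the groups, at sums of 7.14 to 9.07 and 7.20 to 9.27 FPKM, nearly all from Mbp and Tubb3, and Sox10 was at or under 0.06 FPKM except in Sg-C3 replicate 3 (0.65).

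Most ephrins and Eph receptors stayed under 1 FPKM. Of 12 genes, 2 passed the filter and none was called with or without it. Epha2 was the most abundant, at 3.67, 5.48 and 5.72 FPKM in Sg-Con and 6.21, 5.73 and 5.81 FPKM in Sg-C3. Every Sg-C3 value was above every Sg-Con value (5.73 FPKM or more against 5.72 FPKM or less), and the difference did not pass (log2 fold change 0.23, SE 0.15, limma adjusted p = 0.246). Efnb2, the ligand of Ephb4, stood at 0.51, 1.13 and 1.67 FPKM and at 1.74, 2.07 and 1.32 FPKM (limma adjusted p = 0.178), and Ephb4 itself at 0.74 to 1.12 FPKM over all libraries. Efna5 was higher in every Sg-C3 library (0.49 to 0.87 FPKM) than in any Sg-Con library (0.31 to 0.42 FPKM) and did not pass (limma adjusted p = 0.0785 without the filter). The highest values were 0.79 FPKM for Efnb1, 0.50 for Efna2, 0.46 for Ephb2, 0.30 for Epha4 and 0.21 for Efnb3. Efna1, Efna3 and Efna4 lie next to one another among the protein-coding genes of chromosome 3 in the RefSeq annotation. Efna1 and Efna4 had all Sg-C3 values below all Sg-Con values (0.07 to 0.24 against 0.29 to 0.41 FPKM, and 0.03 to 0.10 against 0.13 to 0.48 FPKM) without passing (limma adjusted p = 0.0571 and 0.114 without the filter). Efna3 was listed at 0 in 2 Sg-C3 libraries and at 0.04 to 0.13 FPKM in the others. Over all members the groups did not overlap for 20 of 40, against 49.1% of all genes in the table.

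Co-receptors, further cues and intracellular effectors were examined as a list of 88 genes, of which 72 were in the table and 57 were tested. In it 14 rose, 17 fell and 26 did not pass, so that 54.4% were called against 44.4% of all tested genes, with a median log2 fold change of -0.10 against -0.16. By direction, 24.6% were higher and 29.8% lower, against 12.7% and 31.7% of all tested genes. After median-ratio scaling 15 rose and 11 fell, where 19.6% of all tested genes were called higher and 17.6% lower. Of 9 tested co-receptors and binding partners 3 rose and 3 fell, and of 6 other cues and receptors 3 rose and none fell. Of 42 effectors 8 rose (19.0%) and 14 fell (33.3%), the latter near the 31.7% of all tested genes. The called genes numbered 20 without Sg-C3 replicate 1 and also without Sg-C3 replicate 2. Nrp1, the neuropilin that serves Sema3a, fell from 45.6, 58.78 and 36.1 FPKM to 9.55, 11.98 and 18.25 FPKM (log2 fold change -1.76, SE 0.25, adjusted p = 0.00319 in limma). The second neuropilin gene, Nrp2, did not pass (39.60 to 53.62 FPKM in Sg-Con and 33.64 to 63.19 FPKM in Sg-C3; limma adjusted p = 0.981). Dpysl2, an intracellular mediator of Sema3a signalling, fell from 10.9 ± 0.901 to 4.71 ± 1.28 FPKM. Itsn1, an endocytic scaffold and exchange factor for Cdc42, fell from 41.6 ± 6.73 to 11.7 ± 3.98 FPKM (log2 fold change -1.78).

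Under the rule for naming partners, the highest fold changes were those of Ntng2, Met, Plxdc2 and Cd72. Cd72, a receptor of Sema4d, had 161.48, 61.43 and 154.42 FPKM in Sg-Con and 255.72, 225.81 and 354.73 FPKM in Sg-C3 (log2 fold change 1.24, SE 0.37, limma adjusted p = 0.0314). Met, the hepatocyte growth factor receptor, which associates with B-type plexins, rose from 3.49, 7.93 and 13.39 FPKM to 40.61, 43.23 and 14.52 FPKM, with Sg-C3 replicate 3 close to the highest Sg-Con library (limma adjusted p = 0.0242). Ntng2, a lipid-anchored relative of the netrins, had a log2 fold change of 2.55, from 1.79, 2.81 and 2.99 FPKM to 25.57, 20.06 and 14.32 FPKM (SE 0.23, limma adjusted p = 0.00109). Slit3 rose beside Slit2, from 6.57, 8.61 and 9.50 FPKM to 12.98, 18.86 and 11.70 FPKM (limma adjusted p = 0.0219), and is named here after its values were seen. Robo2, a receptor for Slits, and its relative Robo4 stood at or under 0.27 FPKM in every library. Plxdc1 and Plxdc2, which carry a plexin-like domain but are not plexins, went in opposite directions, with log2 fold changes of -1.41 and 1.31.

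Promoter sequences were searched for short motifs, mainly for the class 4 semaphorins, of which several were called. RefSeq (GRCm38.p6) gave 46 transcription starts for 33 of the 40 members, and the 250 bases before each were scanned on both strands for TTCNNNGAA (a STAT-type site), GAAA and GAAA with 2 bases between (an interferon-stimulated response element), GGG and TTTCC with 2 bases between (NF-kappaB), TGANTCA (AP-1) and GAGGAAGT (PU.1). The shares of all 32851 windows of that length with a match were 7.02%, 2.98%, 1.41%, 6.75% and 2.44%. The members had 1, 2, 1, 3 and 0 such windows. Of the 13 windows of the class 4 semaphorins 2 held a match, in each case to AP-1 (Sema4c and Sema4d), and no window of Sema4a or Sema4b held any. The interferon element was found before Plxnc1, which rose, and before 1 start of Sema6b, which did not pass. These 2 windows and that of Sema4c are shown 5′ to 3′ on the strand of the gene, the minus strand in each case, with the matched letters in capitals. The match begins 118, 146 and 22 bases before the start, and none overlaps another motif searched. The positions are chr10:94944846-94945095, chr17:56140344-56140593 and chr1:36558382-36558631, outside the annotated exons of these genes in GENCODE M21.
Plxnc1: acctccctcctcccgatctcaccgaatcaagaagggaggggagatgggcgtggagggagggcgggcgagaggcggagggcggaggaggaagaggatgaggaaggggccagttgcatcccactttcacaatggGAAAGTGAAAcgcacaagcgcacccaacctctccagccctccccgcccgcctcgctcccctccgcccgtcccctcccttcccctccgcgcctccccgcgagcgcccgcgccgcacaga
Sema6b: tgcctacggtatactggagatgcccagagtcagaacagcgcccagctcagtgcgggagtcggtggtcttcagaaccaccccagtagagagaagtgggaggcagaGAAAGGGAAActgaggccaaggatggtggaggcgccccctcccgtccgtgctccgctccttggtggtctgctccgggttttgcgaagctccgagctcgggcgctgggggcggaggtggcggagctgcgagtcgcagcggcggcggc
Sema4c: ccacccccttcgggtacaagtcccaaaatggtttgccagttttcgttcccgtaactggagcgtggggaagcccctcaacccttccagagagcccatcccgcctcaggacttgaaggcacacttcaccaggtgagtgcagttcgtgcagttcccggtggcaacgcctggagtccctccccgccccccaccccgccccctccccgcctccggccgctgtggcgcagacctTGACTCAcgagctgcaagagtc
The windows before Plxnc1 and Sema6b thus share an element of the same form, GAAAGTGAAA and GAAAGGGAAA, while the genes differed in the test. A match describes the letters only, and the deposited table gives no start site or binding.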

How the data were processed

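RNA was measured in 6 libraries of sorted macrophages, 3 per group. The authors deposited 1 FPKM value per gene and library, with 2 decimals, and the unit is given per the file headers. The mm8 build and Bowtie 0.12.2 are named, per the submitters' processing notes. The FPKM tool and strandedness are not given in the sources used here, and per the labels' protocols both a TruSeq and an MGIEasy kit are named. No counts were available, so count tests were not run. Symbols that a spreadsheet had turned into dates (23) were restored from gene identifiers with RefSeq (GRCm38.p6). A column of cluster numbers was not used.

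Depth was estimated from whole-read steps in the short genes after taking 36 bases from each gene's length. Within 0.1 read, 88.2% to 94.2% of values of up to 8 reads were whole. Reads of a member were estimated with its longest GENCODE M21 transcript.

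The test used limma 3.58.1 (R 4.3.3; lmFit and a trended eBayes) on log2(FPKM + 1), over the 11198 genes that reached 1 FPKM in 3 or more libraries. That scale understates changes of low values. Calls had a Benjamini-Hochberg adjusted p below 0.05. SE is limma's and SD is over 3 libraries. In each of 10 simulated sets of these genes, 200 genes were changed, with independent noise and no shift shared by a library. There 74.1% of genes changed 2-fold and 95.8% changed 4-fold were found, and 4.73% of calls were false. In the data 44.4% of tested genes were called, so these rates do not give the error of the calls reported here. Members and lists were chosen with earlier results of these data known. Called members and those with a mean of 10 FPKM in a group are given in full, others by range, except a few others given in full for comparison. In the list of partners the 4 highest and 4 lowest called genes with a mean of 5 FPKM in a group are named, and Nrp2, Slit3, Robo2 and Robo4 were added after their values were seen. Sums of markers without the most abundant marker were added after seeing the data. Alternatives were a pseudocount of 0.1, no filter, a mean of at least 5 FPKM, quantile normalization, median-ratio scaling, title style as a covariate, a threshold of 0.1 and leaving out each library among the same tested genes. Python 3.11.15, pandas 2.3.3, numpy 2.4.6 and matplotlib 3.10.9 were used.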

Additional observations from a re-analysis of the deposited data

How the results depend on the processing

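Of the 11 members called, 11 kept their call and direction under quantile normalization, under median-ratio scaling, with a pseudocount of 0.1 and without the filter, which called 12, 14, 11 and 13 members. At a minimum mean of 5 FPKM, 8 of them were tested and all 8 were called. Leaving out each library gave 9 to 11 called members, and Sema6d and Slit2 were the calls lost, as given beside them. With the title style as a covariate 10 were called, and at a threshold of 0.1, 12. The log2 fold change of Sema3a, which did not pass, ran from -0.01 (without Sg-Con replicate 1) to 0.40 when a library was left out, and that was the reversal of direction among the 19 tested members. Calls over all genes numbered 4972, and 2855 to 5153 with a library left out, the lowest without Sg-C3 replicate 2. The share of calls that were lower was 71.5%, against 56.9% (quantile) and 47.3% (median-ratio scaling), and the latter moved the median log2 fold change of all genes from -0.16 to 0.00. The partners, whose alternatives were added after seeing the data, had 31 calls, and 20 to 28 with a library left out, the lowest when Sg-C3 replicate 1 or 2 was left out. Such fits held fewer libraries, and the cause of these drops was not tested. No paired analysis was possible because the labels give the groups no shared replicate numbers. Depth limits the members below the filter, which had an estimated 0 to 148 reads per library.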
